A study of Pimephales promelas and Coturnix japonica and Xenopus laevis with 724 samples.

Results

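The 50 identifiers described here were selected on their rise in 4 experiments, in which embryos of the fathead minnow (Pimephales promelas) and of the African clawed frog (Xenopus laevis) were exposed to benzo[a]pyrene or to lead. They were chosen by 1 rule from 8258 identifiers that reached a mean of 5 CPM (the count over the library's total count, put on 1 common scale) at the highest level in all 4 experiments. Those 8258 came from 16250 identifiers listed in all 4 tables and 42403 in the whole series. For each experiment the log2 ratio of mean CPM was taken, highest level over control, with 1 CPM added to each mean. Identifiers were then ranked by the smallest of their 4 ratios, and the first 50 were kept. A member is thus an identifier, shared by both animals' tables, whose mean was higher in both animals under both chemicals. The member ranked 50 had a smallest ratio of 0.28 on the log2 scale (0.2783), and the identifier ranked 51, just outside, had 0.28 as well (0.2761).

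The series covers 6 vertebrate species, 8 chemicals and 724 labelled libraries in 49 tables, 1 table for each animal, stage and exposure measured together. In the 4 experiments of the rule the groups were HIGH, MED and CTRL embryos of the early life stage, with 5 libraries a group; the clawed frog lead controls are 6 libraries counted as 5, for a reason given with the depths. The CTRL group carried the chemical label dmso in all 4 experiments, lead included, and the levels have no unit in the labels. The other experiments used here were trout (Oncorhynchus mykiss) and leopard frog (Lithobates pipiens) embryos, and early-life cormorant (Phalacrocorax auritus) liver. They also covered quail (Coturnix japonica) liver at 2 stages, adult and early life, and adult minnow liver. Their exposures carry the codes ee2, flx, cpf, tb, hbcd and seme, taken here as ethinylestradiol, fluoxetine, chlorpyrifos, trenbolone, hexabromocyclododecane and selenomethionine. In clawed frog benzo[a]pyrene, 1 of the 4 experiments of the rule, the titles of the libraries labelled HIGH carry an M and those labelled MED an L. Titles and level labels also disagree in leopard frog benzo[a]pyrene and minnow hexabromocyclododecane, and the level label was used in all 3. Nothing in the labels says whether a library is 1 animal, a pool or a separate culture, so p-values measure the spread between libraries.

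Benzo[a]pyrene is a combustion product that binds the aryl hydrocarbon receptor, a transcription factor that switches on genes for its own oxidation, among them cytochromes P450 of family 1. Some of its oxidation products bind DNA, and its metabolism also produces reactive oxygen. Lead is a metal that replaces zinc and calcium in proteins, inhibits enzymes of haem synthesis, and depletes glutathione. The deposited files give identifiers with no gene names, and 0 of 42403 matched the reference table of 64593 minnow genes. No role or sequence can be given for a member, and members are called by their rank in the rule.

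Library totals in the 4 experiments ran from 8755479 to 40874842 counts. The HIGH replicate A library of minnow benzo[a]pyrene stood apart, with a median correlation of 0.9186 with its own group on log2(CPM + 1), against 0.9854 to 0.9916 for the other HIGH libraries of that experiment. The main values that rest on it are given with and without it. Controls 3 and 3.1 of clawed frog lead were nearly 1 library: their counts gave a chi-square of 1.302 divided by its degrees of freedom, while the next closest pair in any group had 2.769. They were counted as 1 library in the fits and in the means below, while the rule took all 6 columns. Fold changes in tests are from edgeR's quasi-likelihood test with TMM scaling, and a call is a Benjamini-Hochberg adjusted p below 0.05 over all identifiers tested in a table. In minnow benzo[a]pyrene this scaling lies 0.12 above column totals on the log2 scale.

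In the 4 experiments that chose them the members differed widely in size. In minnow benzo[a]pyrene the ratio ran from 0.28 to 1.74 on the log2 scale with a median of 0.51 (0.54 without HIGH replicate A), and this experiment gave the smallest ratio for 25 of the 50. In clawed frog benzo[a]pyrene it ran from 0.29 to 3.32 with a median of 0.73. In minnow lead it ran from 0.28 to 2.496 with a median of 0.80. In clawed frog lead it ran from 0.30 to 4.02 with a median of 0.74. Over all 8258 identifiers past the floor the medians were -0.06, 0.03, 0.02 and 0.00 in that order. These values chose the members and are given as a description.

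The member ranked 1, s2f_0002344001, was the only one whose ratio passed 2-fold in all 4 experiments. In minnow benzo[a]pyrene its 5 HIGH libraries A to E had 121, 44.1, 40.1, 39.3 and 38.2 CPM, against 11.9, 13.0, 19.9, 20.3 and 15.8 CPM in control libraries A to E. The groups did not overlap, and replicate A was the high library: the HIGH mean was 56.6 ± 36.2 CPM with it (SD, n = 5) and 40.4 ± 2.6 CPM without it (SD, n = 4). In clawed frog benzo[a]pyrene the member had 124.5 ± 20.5 CPM at HIGH and 45.5 ± 1.9 CPM in controls (SD, n = 5 each). In minnow lead it had 33.6 ± 1.5 CPM at HIGH and 11.3 ± 0.4 CPM in controls (SD, n = 5 each). In clawed frog lead it had 137 ± 22.8 CPM at HIGH and 37.6 ± 4.6 CPM in controls (SD, n = 5 each). HIGH and control libraries stood apart in each of these experiments.

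The member ranked 5 had log2 ratios of 3.32 and 4.02 in the clawed frog under benzo[a]pyrene and lead, and of 0.73 and 1.12 in the minnow. In clawed frog lead its HIGH libraries held 890, 931, 1079, 1211 and 1255 CPM, against 23.8, 31.7, 50.1, 50.7 and 117 CPM in controls, the last being the mean of the near-identical pair. The ratio of 4.02 was the largest of any member in any of the 4 experiments. In clawed frog benzo[a]pyrene it had 677 ± 192 CPM at HIGH and 66.9 ± 27.6 CPM in controls (SD, n = 5 each). Its minnow control levels were higher: 736 ± 231 CPM at HIGH and 443 ± 104 CPM in controls under benzo[a]pyrene, and 738 ± 77.1 CPM at HIGH and 338 ± 42.2 CPM in controls under lead (SD, n = 5 each). Without HIGH replicate A, which held 1134 CPM, the minnow benzo[a]pyrene mean was 636 ± 72.4 CPM (SD, n = 4), and the log2 ratio was 0.52, against 0.73 with it. HIGH and control libraries of this member overlapped only in minnow benzo[a]pyrene.

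**Figure D1:**
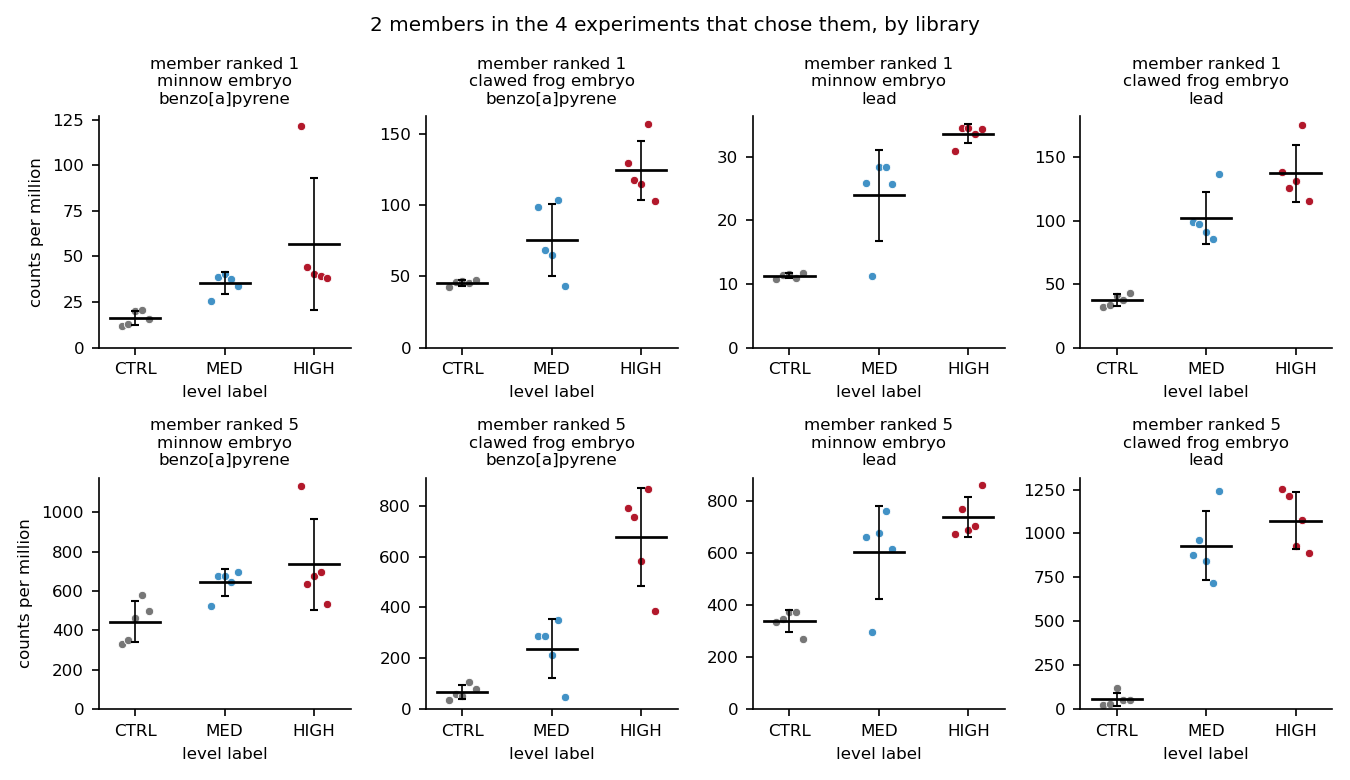
CPM by library (points), with the mean (line) and SD (bars), for the members ranked 1 (top) and 5 (bottom) in the 4 experiments that chose them, by level label. The HIGH library at 121 CPM (top left) and at 1134 CPM (bottom left) is replicate A of minnow benzo[a]pyrene; the clawed frog lead HIGH libraries of the member ranked 5 lie at 890 to 1255 CPM, above controls at 23.8 to 117 CPM.

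In minnow lead 47 of 50 members had every HIGH library above every control, where 7.18% of all identifiers tested did. The count was 43 in clawed frog lead, taken over all 6 control columns (2.02% of all). It was 41 in clawed frog benzo[a]pyrene (9.65%) and 15 in minnow benzo[a]pyrene (2.71%). Without HIGH replicate A the last count was 25 (4.95%). In all 4 experiments 12 members were apart, where 0.118% of the 11816 identifiers tested in all 4 were (14). In the edgeR fit, 46 members were called higher in minnow lead, where 6.69% of all identifiers were. The calls were 44 in clawed frog benzo[a]pyrene (11.0% of all identifiers), 43 in clawed frog lead (1.57%) and 18 in minnow benzo[a]pyrene (1.57%). In all 4 experiments 17 members were called, where 0.161% of those 11816 identifiers were (19). Because the rule used these contrasts, nothing is read from the excess. Without HIGH replicate A, 22 members were called in minnow benzo[a]pyrene (2.13% of all identifiers), with a fitted median of 0.51 on the log2 scale, against 0.70 with it.

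The MED libraries, which share their controls with the rule, differed between the experiments in how near they came to HIGH. The rule chose high HIGH means over low control means. That favours MED means between them and MED calls against the same controls, so the counts below are a description only. In clawed frog lead the MED mean already equalled or passed the HIGH mean for 20 of 50 members, and 41 were called higher at MED (1.67% of all identifiers). The fitted median there was 0.80 at MED and 0.77 at HIGH on the log2 scale. In minnow benzo[a]pyrene the MED mean equalled or passed the HIGH mean for 27 members, with 12 called (1.04%). Without HIGH replicate A it did so for 24, with 26 called at MED (2.43%). In clawed frog benzo[a]pyrene it lay between control and HIGH for all 50, with 17 called (1.3%). In minnow lead it lay between for 49, with 17 called (0.28%), and the MED mean of 1 member was at or below its control mean.

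Outside the rule, the members were tested at the highest level in 35 experiments with labelled controls. Of 1662 member tests, 16 were called higher and 1 lower, in 5 experiments; over all identifiers of these experiments 0.118% were called higher and 0.0532% lower. The calls fell on 12 members for a rise and on the member ranked 1 for a fall, and 37 members were called in none. No member was called higher in more than 2 experiments. In the median member the fitted fold change was above 0 in 48.6% of its experiments, beside 50% for the 10927 identifiers tested in at least 23 experiments, the fewest of any member. Members' medians per experiment ran from -0.17 to 0.20 on the log2 scale, and 15 of the 35 were above 0, while the medians of all identifiers ran from -0.02 to 0.08. In the 30 experiments with no member called, 0.0513% of all identifiers were called in either direction. There 62 of 1420 member tests were higher and 65 lower at an unadjusted p below 0.05 in edgeR, and DESeq2 called 4 higher and 3 lower. The share of all identifiers past that p ran by experiment from 0.325% to 12.9% higher and from 0.638% to 12.2% lower.

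**Figure D2:**
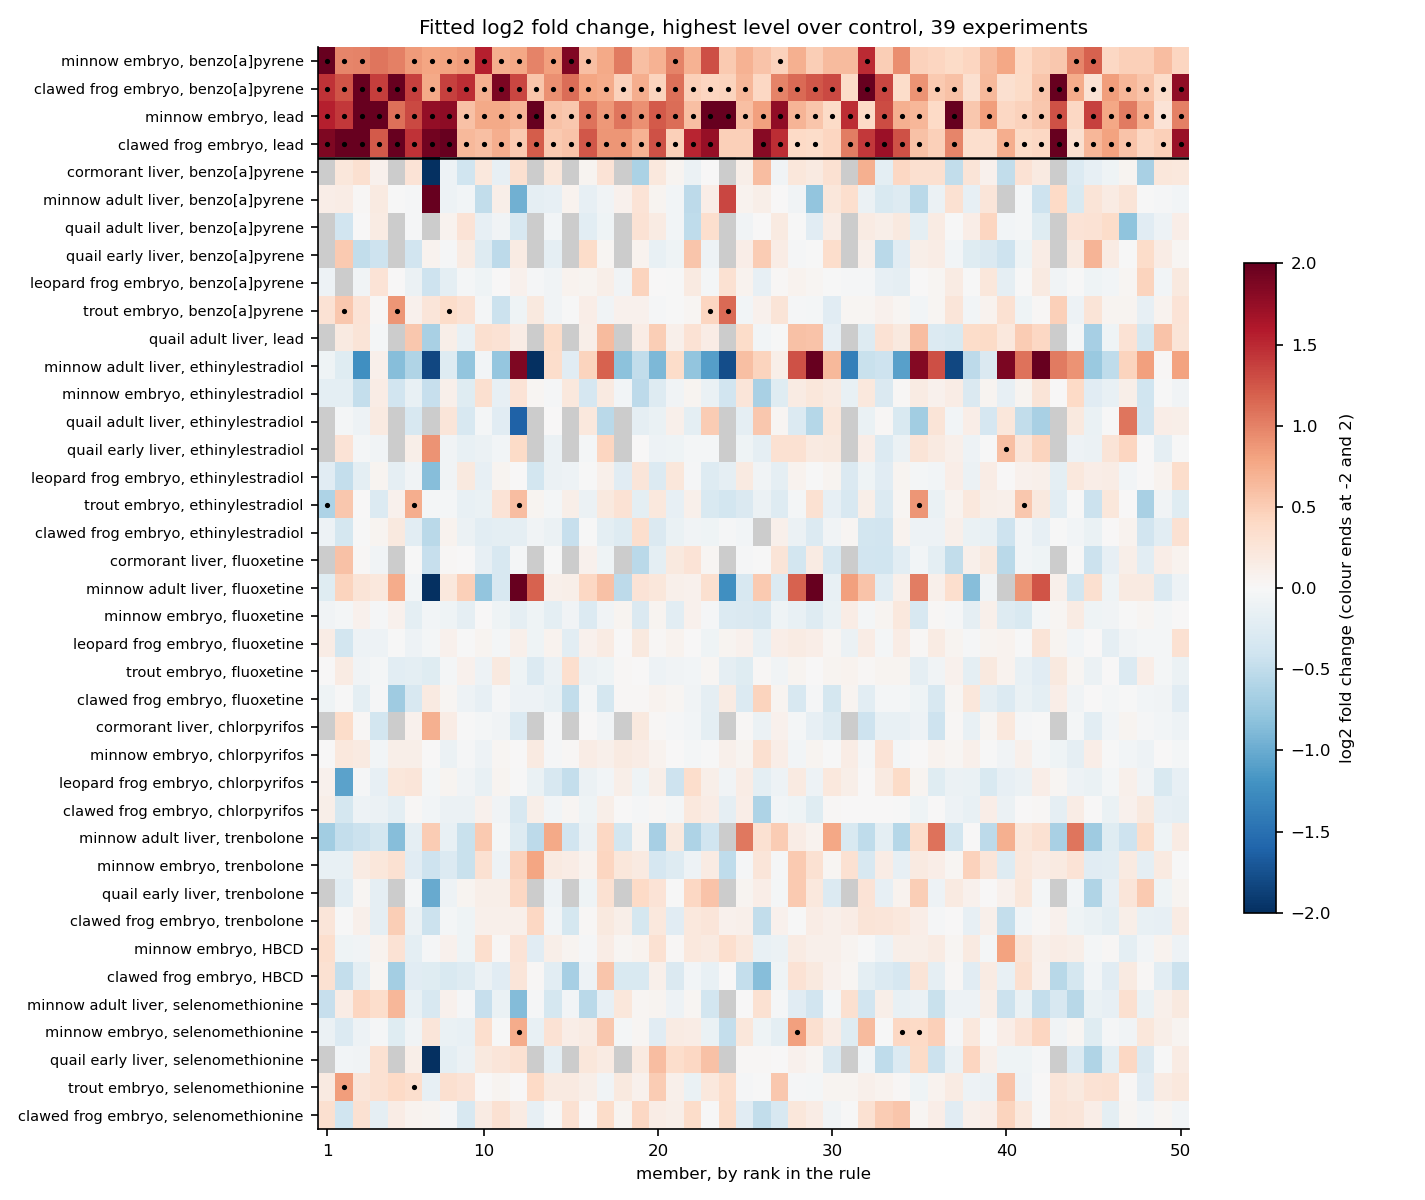
Fitted log2 fold change of the 50 members (columns, by rank) at the highest level over control in 39 experiments (rows); red is higher, blue lower, grey not tested, and a dot is a call at an adjusted p below 0.05. The top 4 rows are the experiments of the rule and are red by selection; below the line 17 dots stand in 5 rows.

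The trout embryos gave the most calls for either chemical outside the rule. They were exposed to benzo[a]pyrene at levels labelled D1, D3, D9, D27 and D81, with 4 libraries a level and 7 controls. No member was called at D1 (0.0% of all identifiers) or D3 (0.0119%). At an unadjusted p below 0.05 in edgeR 4 members were higher and 1 lower at D1 (3.91% and 3.34% of all identifiers). At D3 these were 3 and 0 (2.46% and 2.33%). DESeq2 gave no call at either level. At D9, 1 member was called higher (0.0715% of all identifiers), at D27 5 (0.346%) and at D81 5 (0.209%), and none lower. These were 7 different members. The D81 count fell to 2 or 3 without any of controls CB, SB and SD or the D81 libraries C, D and E, and the count of distinct members to 3 or 4. From D1 to D81, 25, 37, 41, 28 and 33 members were above 0, beside 50.1%, 49.7%, 49.8%, 49.2% and 50.3% of all identifiers. The median of all 50 was 0.00, 0.05, 0.10, 0.10 and 0.06 on the log2 scale in that order. Against the 4 controls whose titles begin with S these medians were 0.08, 0.12, 0.17, 0.12 and 0.11, and against the 3 that begin with C they were -0.08, -0.03, 0.05, 0.04 and 0.02, so the sign at D1 and D3 turned with the controls.

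The member ranked 5 rose at 3 levels. Its controls held 107 to 187 CPM. The libraries held 157 to 184 CPM at D1, 176 to 219.1 at D3, 221.3 to 277 at D9, 270 to 337 at D27 and 248 to 284 at D81. All libraries from D9 upward lay above all controls. The fitted log2 fold change was 0.78 ± 0.12 at D9, 1.05 ± 0.12 at D27 and 0.89 ± 0.12 at D81 (SE; edgeR adjusted p = 0.00148, 3.58e-06 and 7.67e-05). It was called at these levels in all 27 refits that left out 1 library. Against the C controls alone the D9 call was lost (0.61; edgeR adjusted p = 0.368).

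The members ranked 23 and 24 were called at D27 and D81. The member ranked 23 had 34.3 ± 2.3 CPM in controls (SD, n = 7), 45.6 ± 1.2 CPM at D27 and 47.6 ± 2.0 CPM at D81 (SD, n = 4 each). Its log2 fold change was 0.44 ± 0.08 at both levels (SE; edgeR adjusted p = 0.00254 and 0.00282), and its libraries at D27 and D81 lay above all controls. It was called in all 27 refits that left out 1 library, but against the C controls alone it was 0.35 at D27 and 0.34 at D81 and not called (edgeR adjusted p = 0.153 and 0.293). The member ranked 24 had low counts, with 3.3 ± 1.1 CPM in controls (SD, n = 7), 7.0 ± 2.1 CPM at D27 and 7.4 ± 1.9 CPM at D81 (SD, n = 4 each). Its log2 fold change was 1.17 ± 0.23 at D27 and 1.13 ± 0.23 at D81 (SE; edgeR adjusted p = 0.0128 and 0.0197), and at D27 its libraries overlapped the controls. Its calls were lost in some refits, being made in 26 of 27 at D27 and 23 of 27 at D81. It was called against neither kind of control alone (edgeR adjusted p from 0.0509 to 0.309). Its log2 fold changes at D27 and D81 were 1.27 and 1.23 against S controls and 1.04 and 1.01 against C controls.

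The 4 other trout members were called at 1 level each, and each of these calls was lost in some refits. Of 27 refits that left out 1 library, the member ranked 3 was called in 9 and the member ranked 43 in 12. The member ranked 2 was called in 21 and the member ranked 8 in 18. The members ranked 3 and 43 were called at D27 with log2 fold changes of 0.34 ± 0.08 and 0.48 ± 0.11 (SE; edgeR adjusted p = 0.0487 for each). The members ranked 2 and 8 were called at D81 with 0.54 ± 0.11 and 0.36 ± 0.08 (SE; edgeR adjusted p = 0.0252 and 0.0337). Between the 2 kinds of control title, 40 of 50 members were higher in the C than in the S controls, where 44.3% of all identifiers were. The codes are not explained in the labels, and their part in the trout calls was not tested. Fits against each kind have 4 S or 3 C controls in place of 7, and calls can be lost with fewer libraries as well. Against S controls alone 4 members were called over the levels, and against C controls alone 2. Against S controls 35 of 16717 identifiers were called higher at D27, 4 of them members, and 23 at D81, 3 of them members. Against C controls these were 21 of 16833 with 1 member at D27, and 14 with 2 members at D81. The member ranked 5 was called at D27 and D81 against either kind, by 1.19 and 1.03 on the log2 scale against S and 0.88 and 0.72 against C. The member ranked 1 was not called at any level; it had 17.5 ± 2.2 CPM at D81 (SD, n = 4) and 14.0 ± 2.6 CPM in controls (SD, n = 7).

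**Figure D3:**
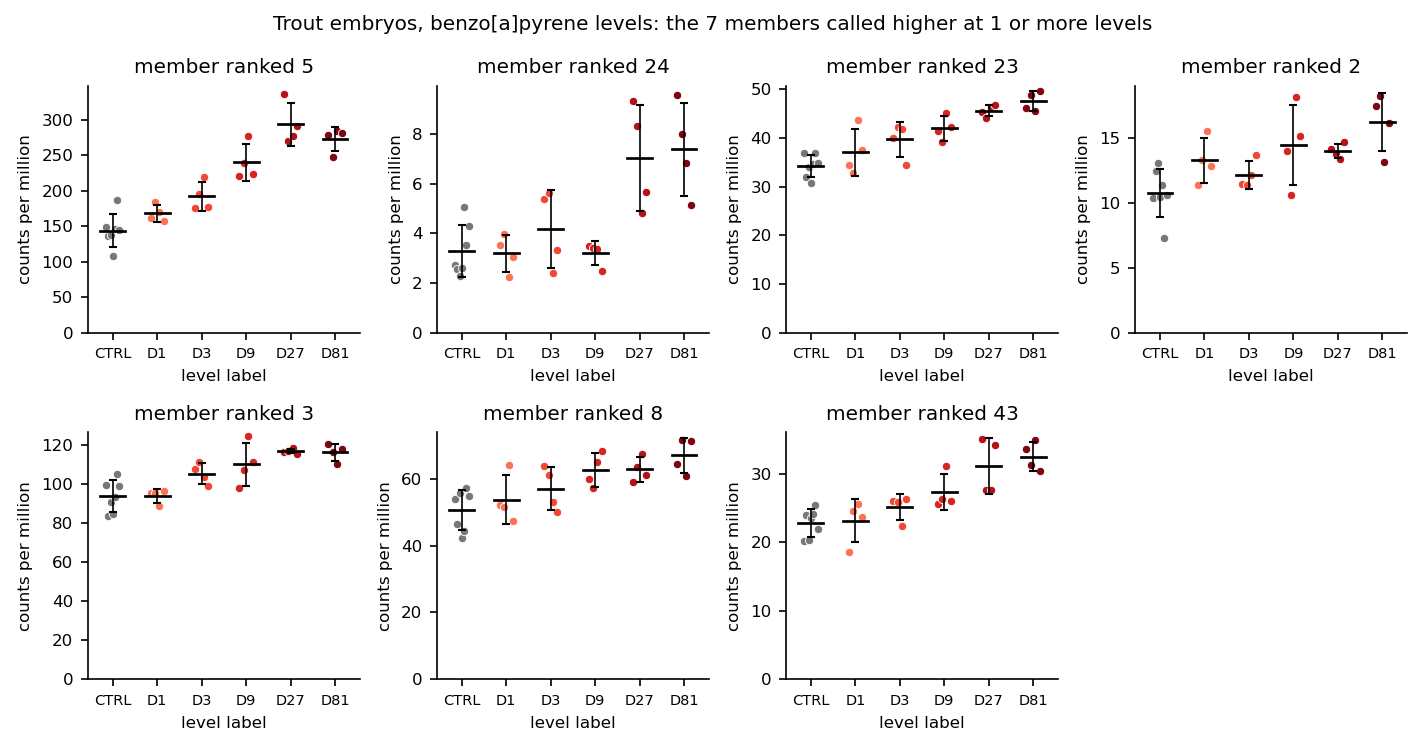
CPM by library (points), with the mean (line) and SD (bars), for the 7 members called higher at 1 or more benzo[a]pyrene levels in trout embryos; levels run from control to D81. The member ranked 5 reaches 270 to 337 CPM at D27, above controls at 107 to 187 CPM.

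No member was called in the 5 other benzo[a]pyrene experiments, where 0.0139% of all identifiers were called in either direction. Of 223 member tests in edgeR, 16 were higher and 11 lower at an unadjusted p below 0.05, while DESeq2 called 2 higher, both in cormorant liver. The share of all identifiers past that p ran by experiment from 1.65% to 6.45% higher and from 1.64% to 12.2% lower. In cormorant liver 28 of the 42 members tested were above 0 (47.7% of all identifiers), with a median of 0.15 beside -0.02 for all identifiers. By column totals these medians were -0.05 and -0.25, so the sign of the members' median turned. A scaling moves all identifiers of a library alike, so the order of these medians is not tested by it. In quail liver the members' medians were 0.00 in adults and 0.04 in the early stage, and -0.005 in both adult minnow liver and leopard frog embryos. In adult minnow liver 1 member was higher and 1 lower at an unadjusted p below 0.05 in edgeR; the difference from minnow embryos was not tested, since the 2 stages are separate tables.

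Quail liver was the only other lead experiment with controls used here. Its table is deposited for both the adult and the early-life stage with the same libraries; it is given here under the adult label, and its stage is not settled. No member was called in edgeR or DESeq2, where 0.0256% of all identifiers were called by edgeR in either direction. Of 42 members tested, 29 were above 0, where 48.5% of all identifiers were. At an unadjusted p below 0.05 in edgeR 6 were higher and 0 lower, where 4.68% and 8.85% of all identifiers were. The members' median of 0.20 on the log2 scale was the highest of the 35 experiments, with -0.01 for all identifiers. By column totals the members' median was -0.04 and that of all identifiers -0.25, so here too the sign of the members' median turned. As in cormorant liver, the scaling moves members and other identifiers alike and does not test their order.

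Selenomethionine, an organic form of selenium, gave 6 calls in 2 of 5 experiments. In minnow embryos 4 members were called higher at HIGH, where 0.541% of all identifiers were. They were s2f_0000056028 (ranked 12), s2f_0000398005 (ranked 35) and the members ranked 28 and 34. The member ranked 12 had 162, 189, 199 and 202 CPM at HIGH, against 91.6, 102, 115 and 121 CPM in controls. The groups did not overlap, and the log2 fold change was 0.74 ± 0.10 (SE; edgeR adjusted p = 0.00054). LOW libraries held 92.6 to 102 CPM and MED libraries 99.6 to 137 CPM, all below every HIGH library. Over all 50 members 26 were above 0 (50.2% of all identifiers), with a median of 0.04. At an unadjusted p below 0.05 in edgeR 12 were higher and 7 lower, where 6.22% and 5.5% of all identifiers were.

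The member ranked 35 had 175, 212, 212 and 223 CPM at HIGH, against 130, 138, 156 and 172 CPM in controls, with a log2 fold change of 0.40 ± 0.08 (SE; edgeR adjusted p = 0.0263). The lowest HIGH library lay just above the highest control. The call was lost without HIGH replicates A, C or D or control replicates B or D. The members ranked 28 and 34 had log2 fold changes of 0.82 ± 0.17 and 0.41 ± 0.06 (SE; edgeR adjusted p = 0.0346 and 0.000902), and neither overlapped its controls. The count of 4 fell to 2 without control replicate B or D or HIGH replicate C or D.

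In trout embryos under selenomethionine 2 members were called higher, the members ranked 2 and 6, where 0.404% of all identifiers were. The member ranked 2 had 27.6 ± 11.2 CPM at HIGH (SD, n = 4) and 15.2 ± 1.6 CPM in controls (SD, n = 5), with a log2 fold change of 0.84 ± 0.18 (SE; edgeR adjusted p = 0.0237). The member ranked 6 had 82.7 ± 11.9 CPM at HIGH and 64.3 ± 6.2 CPM in controls, with 0.34 ± 0.08 (SE; edgeR adjusted p = 0.0283). Of the 50 members 38 were above 0 (51.2% of all identifiers), with a median of 0.11 beside 0.00 for all identifiers. At an unadjusted p below 0.05 in edgeR 17 were higher and 1 lower, where 5.79% and 4.88% of all identifiers were. Without HIGH replicate B or control replicate C no member was called, and without control replicate A, B, D or E 1 was. None of the 4 members called in minnow embryos under selenomethionine was called in trout under it.

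**Figure D4:**
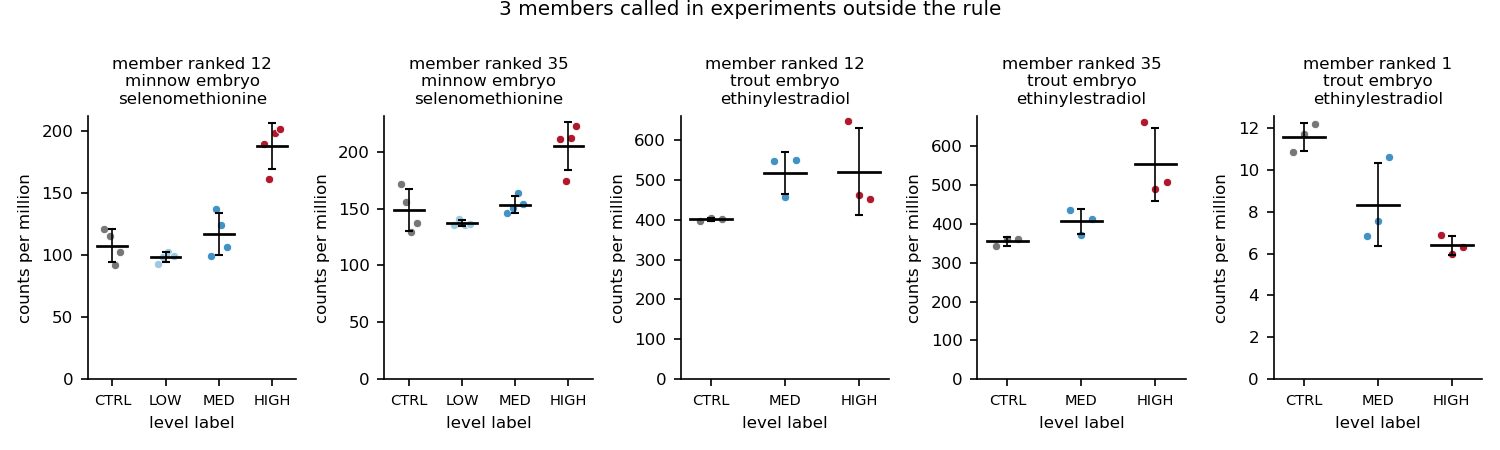
CPM by library (points), with the mean (line) and SD (bars), for the members ranked 12 and 35 in minnow embryos under selenomethionine and, with the member ranked 1, in trout embryos under ethinylestradiol. At HIGH the members ranked 12 and 35 lie above all controls in both experiments, and the member ranked 1 lies below them at 5.98 to 6.90 CPM.

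Ethinylestradiol, a synthetic oestrogen, gave 5 calls higher and 1 lower in 2 of 7 experiments. In trout embryos 4 members were called higher at HIGH (1.0% of all identifiers) and 1 lower (0.376%), with 3 libraries a group. By column totals the median of all identifiers was -0.23 on the log2 scale, with -0.01 in the TMM-scaled fit, and the 5 called members had the same sign under both. The member ranked 12 had 647, 463 and 452 CPM at HIGH, against 405, 402 and 397 CPM in controls. The member ranked 35 had 662, 510 and 490 CPM at HIGH, against 362, 361 and 342 CPM in controls. HIGH replicate A was the high library for both; their log2 fold changes were 0.62 ± 0.14 and 0.89 ± 0.13 (SE; edgeR adjusted p = 0.0334 and 0.00163). Without that library the first was 0.43 and no longer called, and that call was also lost without control replicate A or B. The count of 4 fell to 2 without any of these 3 libraries.

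The member ranked 1, which led the rise in the rule's experiments, fell in trout under ethinylestradiol. It had 6.90, 6.30 and 5.98 CPM at HIGH, against 12.2, 11.7 and 10.9 CPM in controls, and MED libraries held 6.85, 7.55 and 10.6 CPM. The log2 fold change was -0.61 ± 0.14 (SE; edgeR adjusted p = 0.046), and the call was lost whichever HIGH or control library was left out. The members ranked 6 and 41 were the other calls, with 0.73 ± 0.11 and 0.53 ± 0.11 (SE; edgeR adjusted p = 0.00282 and 0.024). In early-life quail liver 1 member was called higher (0.824% of all identifiers), the member ranked 40, with 9.9 ± 1.3 CPM at HIGH and 6.5 ± 0.7 CPM in controls (SD, n = 5 each) and a log2 fold change of 0.60 ± 0.13 (SE; edgeR adjusted p = 0.0393). That call was lost without control replicate 2, 3 or 4 or HIGH replicate 2, 3 or 5. In adult minnow liver no member was called by edgeR and 1 lower by DESeq2. The members ran from -2.25 to 2.82 on the log2 scale there, with a middle 50% between -0.78 and 0.76. At an unadjusted p below 0.05 in edgeR 7 were higher and 9 lower, where 12.9% and 5.22% of all identifiers were.

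For the remaining chemicals no member was called by edgeR at the highest level against controls. Fluoxetine was tested in 6 experiments, where 0.0% of all identifiers were called: 4 members were higher and 8 lower at an unadjusted p below 0.05, with no DESeq2 call. Chlorpyrifos was tested in 4 (0.00487% called): 8 were higher and 11 lower, and DESeq2 called 1 higher and 1 lower. Trenbolone was tested in 4 (0.0% called): 5 were higher and 9 lower, with no DESeq2 call. Hexabromocyclododecane was tested in 2 (0.444% called): 6 were higher and 9 lower, and DESeq2 called 1 higher. By experiment, 1.8% to 4.59% of all identifiers were higher and 1.58% to 5.18% lower at that p under fluoxetine. Under chlorpyrifos these shares were 1.94% to 7.6% and 1.97% to 7.16%, and under trenbolone 1.52% to 4.74% and 1.79% to 6.79%. Under hexabromocyclododecane they were 3.27% to 5.73% and 3.16% to 5.5%. In clawed frog embryos under hexabromocyclododecane the members' median of -0.17 on the log2 scale lay below that of all identifiers, 0.00. There 32 of 50 members were below 0, while 49.7% of all identifiers were above 0.

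**Figure D5:**
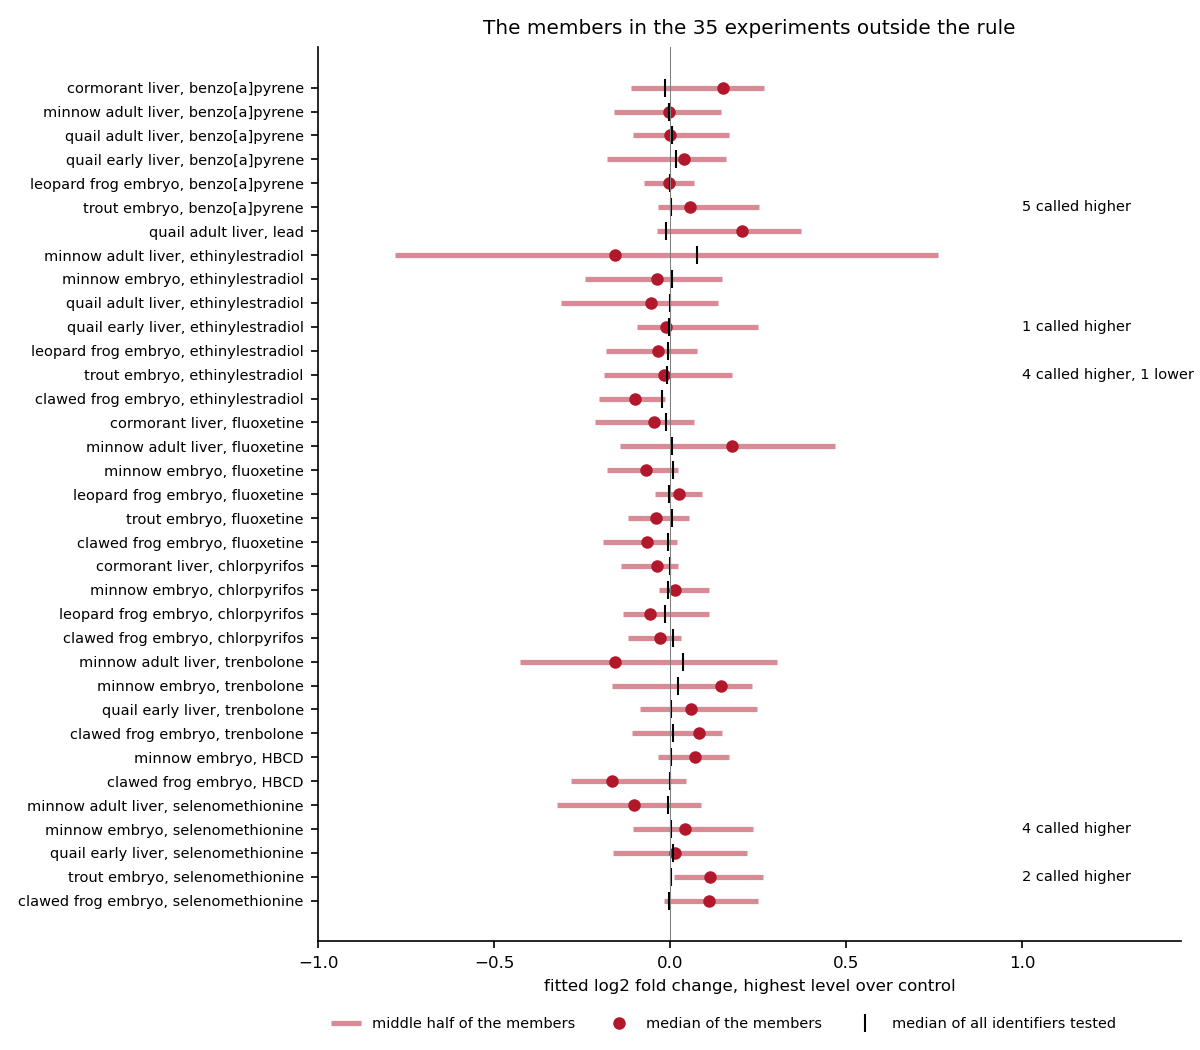
Median (points) and middle 50% (bars) of the members' fitted log2 fold changes at the highest level over control in each of the 35 experiments outside the rule; black ticks are the medians of all identifiers tested. Medians run from -0.17 (clawed frog, hexabromocyclododecane) to 0.20 (adult quail, lead), and counts of calls stand at the right.

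At levels labelled MED or LOW, 36 comparisons outside the rule held 1712 member tests. None was called higher (0.0468% of all identifiers), with 68 at an unadjusted p below 0.05 in edgeR and 7 called by DESeq2. For a fall, 0.0623% of all identifiers were called, 66 member tests had an unadjusted p below 0.05 and DESeq2 called 3. Across these comparisons, 0.316% to 8.3% of all identifiers were higher at that p and 0.358% to 12.1% lower. The member ranked 38 was called lower by edgeR in clawed frog embryos at MED trenbolone (1.51% of all identifiers there), with 18.2 ± 2.1 CPM at MED and 27.5 ± 1.4 CPM in controls (SD, n = 5 each) and a log2 fold change of -0.56 ± 0.12 (SE; edgeR adjusted p = 0.0306). In clawed frog embryos at MED fluoxetine 43 of 50 members were above 0 (49.9% of all identifiers), with a median of 0.22 on the log2 scale beside 0.00 for all identifiers. At an unadjusted p below 0.05 in edgeR 18 were higher and 0 lower, where 7.72% and 3.88% of all identifiers were. None of these was called by edgeR, and DESeq2 called 1. At HIGH fluoxetine the members in clawed frog embryos had a median of -0.07.

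For 9 tables the labels name no control, and HIGH was compared with MED. Of 372 member tests 1 was called higher (0.0896% of all identifiers) and 0 lower (0.0379%), with 21 higher and 21 lower at an unadjusted p below 0.05 in edgeR, and 9 higher and 5 lower called by DESeq2. Across these comparisons, 1.21% to 8.71% of all identifiers were higher at that unadjusted p and 1.07% to 9.19% lower. The call was the member ranked 27 in early-life quail liver under chlorpyrifos (0.487% of all identifiers there), with 48.9 ± 18.7 CPM at HIGH and 21.5 ± 5.7 CPM at MED (SD, n = 5 each) and a log2 fold change of 1.14 ± 0.20 (SE; edgeR adjusted p = 0.036).

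The members' levels in control libraries and their listing by species are given as a description, with no values over all identifiers beside them. In minnow and clawed frog embryos the rule itself required listing and a mean of 5 CPM at HIGH. Its ratios also favoured low control means there. All 50 were listed in every fish and frog table, and 45 to 50 in bird tables. Among birds all 50 were listed only in early-life quail under ethinylestradiol and chlorpyrifos, with 25644 and 24849 identifiers. Other quail tables had 17821 to 19924. The quail calls, of the members ranked 40 and 27, came from those 2 larger tables. Their median control mean was 29.8 CPM in minnow embryos, 26.3 in clawed frog, 33.1 in trout and 25.4 in leopard frog embryos, and 44.1 in cormorant liver. At least 1 CPM was reached by all 50 in each kind of embryo, by 48 in adult minnow liver, by 42 in cormorant and early-life quail liver, and by 41 in adult quail liver. The filter on low counts passed 49 or 50 members in fish and frogs and 41 or 42 in birds. The member ranked 5, which rose most in clawed frogs, passed it in 2 early-life quail tables and in no table of adult quail or cormorant.

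Members were set side by side in adult liver and embryos of the minnow. The control mean was higher in adult liver than in embryos for 27 of 50 members (54.0%), where it was higher for 14.1% of the 8258 identifiers past the floor. The median log2 ratio of adult liver over embryo was 0.18 for the members and -1.13 for the 8258, and 12 members were over 2-fold higher in liver and 8 over 2-fold lower. These levels are CPM in different tissues, and in such bulk samples fewer cells of a type and less RNA per cell cannot be told apart. Embryo levels entered the rule through its floor. They also entered through the minnow embryo control means that its ratios divide by, which favours members with low ones. No test was made of the difference between liver and embryo.

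The members also varied together among control libraries. In experiments outside the rule, with each library centred on its own experiment, the mean pairwise correlation of the members was 0.258 in minnow embryos (29 libraries), where it was 0.062 over all identifiers. It was 0.217 in clawed frogs (30 libraries; 0.081 for all), 0.234 in leopard frogs (20; 0.032) and 0.188 in trout (18; 0.105). The trout libraries include the benzo[a]pyrene controls, where 40 of 50 members were higher under C than under S titles. The part of that offset in the trout value was not tested. Single pairs ranged widely, with the middle 80% between -0.18 and 0.66 in minnow. The correlation of the members' mean with the log2 library total was 0.083 in minnow, 0.36 in clawed frog, 0.371 in leopard frog and -0.21 in trout, and its part in the shared variation was not tested. These correlations are descriptions, over 49 or 50 members and libraries that share composition. All identifiers here are 16039 in minnow and are not limited to the 8258 past the rule's floor. Any part of expression level in the difference from the members was not tested.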

How the data were processed

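RNA sequencing libraries were prepared from embryos or liver with Qiagen RNeasy kits and read as 101-base pairs on NovaSeq or HiSeq instruments, per the labels' protocols. The authors deposited raw counts per identifier in 49 tables; not given in the sources used here are the aligner, the counter and the build. Identifiers carry no gene names. Totals ran from 4066220 to 69838406 counts per library. The 52 columns that matched no labelled sample were not used.

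The members, the lists and the tests were chosen with earlier results of these data known. CPM was taken over column totals. Each table was fitted alone on its deposited counts with edgeR 4.0.16 (R 4.3.3): filterByExpr, TMM scaling, all levels in 1 quasi-likelihood fit, and Benjamini-Hochberg adjustment over all identifiers tested, with a call below 0.05. The numbered levels of the minnow embryo ethinylestradiol and fluoxetine tables were left out of the fits. DESeq2 1.42.0 was an alternative, and an adjusted p it left undefined was kept so. The shares of all identifiers are edgeR's, also where they stand beside DESeq2 counts of members. None was taken for DESeq2, and its counts are a description only. The fit was tested on simulated data: with trout benzo[a]pyrene means (16780 identifiers) it recovered 91 of 100 identifiers changed 2-fold and 100 of 100 changed 4-fold, and with minnow embryo hexabromocyclododecane means (17300) 81 and 98. Changes below 2-fold, the size of most calls outside the rule, and other experiments were not simulated. The recovery of such changes is therefore not known. In early-life quail chlorpyrifos 2526 identifiers with an empty cell were dropped. The early-life quail lead table holds the same 10 libraries as the adult one and was left out.

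Identifiers are printed for the members called higher in the most experiments outside the rule (2, ties to the larger mean fold change) and for the 1 called lower; the other members are given by rank. Title numbers were taken to pair libraries only where every same-numbered pair deviated together (correlation over 0.1), which held in 4 minnow embryo tables. In trout benzo[a]pyrene, with the S or C of the control titles dropped, 3 of 27 same-letter pairs passed (-0.39 to 0.29). Alternatives were other size factors, no filter, DESeq2, 2-group fits, a replicate block, leaving out each library, and other settings of the rule. Outside the rule, libraries were left out only in the 5 experiments with a member called. Calls gained in the 30 others could not be seen that way.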

Additional observations from a re-analysis of the deposited data

Results flagged for a closer look

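Library values of the members in 104 groups of 4 to 10 libraries were looked at for a highest or lowest library far from the others by Dixon's test, and 11 stood apart; chance gives about 1 in 20 groups. In minnow benzo[a]pyrene the HIGH library of replicate A was high for the member ranked 1 (121.3 CPM) and for the member ranked 5 (1134.0 CPM), and this library correlated least with its group. For the member ranked 1, minnow lead HIGH replicate A was low at 30.96 CPM, minnow lead MED replicate B was low at 11.21 CPM, and clawed frog lead MED replicate 5 was high at 137.1 CPM. For the member ranked 12, clawed frog lead HIGH replicate 3 was high at 204.3 CPM.

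The other 5 were trout benzo[a]pyrene libraries. The member ranked 5 was low at 247.6 CPM in D81 replicate E, still above all controls. The member ranked 3 was low at 88.62 CPM in D1 replicate D, and the member ranked 24 was low at 2.498 CPM in D9 replicate D. The member ranked 43 was low at 22.39 CPM in D3 replicate B and high at 31.17 CPM in D9 replicate C.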

How the results depend on the processing

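Of 284 alternative values for the reported counts, 61 lay more than 1.5 times from the count reported. The 284 include counts of members kept by the rule with each of 41 libraries left out. They also include such a count with the near-identical controls taken as 1 library. Neither kind moved, and all 61 were counts of called members. The 284 also hold the total of 16 with each of 44 libraries left out in turn, in the experiments with a member called only. No experiment held more than 5 of the 16 calls, so losing all calls of 1 experiment would not have counted as moved. The 1 call lower lies in trout ethinylestradiol, and leaving out libraries elsewhere could not lose it. The 16 calls higher outside the rule became 8 with only the 2 groups compared in each fit, 25 with DESeq2 and 10 with the first 25 members, and 13 to 17 when 1 library was left out. The 1 call lower became 3 with DESeq2, 2 with members chosen at a floor of 20 CPM and 5 with the first 100 members, and 0 to 1 when 1 library was left out. With a replicate block it became 6. Minnow selenomethionine (4 calls) gave 2 with 2 groups, 8 with a replicate block, 1 with the first 25 members, and 2 to 4 without 1 library. Trout selenomethionine (2) gave 0 with 2 groups, 4 with DESeq2, and 0 to 3 without 1 library. Trout ethinylestradiol (4) gave 2 with the first 25 members and 2 to 4 without 1 library. Early-life quail ethinylestradiol (1) gave 0 with no filter, with 2 groups, with a replicate block, at a floor of 20 CPM, with members chosen on TMM-scaled CPM and with the first 25 members, and 0 to 1 without 1 library. Trout benzo[a]pyrene at D81 (5) gave 2 with 2 groups and 2 to 6 without 1 library; the 7 members over its levels became 3 with 2 groups and 3 to 7 without 1 library, and, in a comparison chosen after seeing the data, 4 against S-titled and 2 against C-titled controls. Other settings of the rule change which members are counted, and the first 25 or 100 members change how many. Why counts moved under the other alternatives was not tested.

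The replicate block was taken as a paired analysis only in the 4 minnow embryo tables whose numbers passed the check for pairing. In them 0 members were called with and without it outside the rule. Minnow lead, an experiment of the rule, is 1 of these 4. There 48 members were called higher with the block and 46 without it. Over all identifiers 2041 were called higher with it and 1170 without it. In trout benzo[a]pyrene the letters do not pair the libraries. There a replicate block on the letter (added after seeing the data) gave 4 members over the levels, ranked 2, 5, 23 and 24. At D81 it gave 4 calls, where 26 of 16780 identifiers were called higher. The call of the member ranked 35 in minnow selenomethionine was lost with 2 groups (log2 fold change 0.40), and that of the member ranked 1 in trout ethinylestradiol with DESeq2 (-0.61) and with a replicate block (-0.61). Leaving out each of 41 libraries of the rule's experiments in turn, also chosen after seeing the data, kept 42 to 50 of the 50 members, and 31 were in every set. Calls outside the rule rest on 3 to 5 libraries a group, except for the 7 controls of trout benzo[a]pyrene.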
